A study of Mus musculus with 2 samples.

Results

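The 42 genes described here move glucose into the heart muscle cell, break it down to pyruvate, exchange lactate, store glycogen and pass pyruvate to the pyruvate dehydrogenase complex of the mitochondrion. They were taken from a list of symbols, each matched through the symbol that the transcript tables pair with its gene identifier, and they are 42 of 55536 annotated genes. RNA came from whole heart tissue of 2 female B6CASTF1/J mice, an F1 hybrid bred from C57BL/6 and CAST mice, aged 2 months. The labels give 1 library per animal, from 300 ng of total RNA with spike-ins of a ribosome-reduced type. They number the animals as biological replicates with a donor each, in 1 group (n = 2), and name neither a treatment nor a feeding state. With no group to set against, the data give levels, the choice between paralogs, the choice between transcripts and the spread between the animals. Levels are TPM, a length-corrected relative abundance that can be set side by side between genes.

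In this pathway glucose enters through facilitative transporters, is trapped by hexokinase, is committed to breakdown by phosphofructokinase and leaves the lower steps as pyruvate. Pyruvate is either reduced to lactate in the cytosol or carried into mitochondria, where the pyruvate dehydrogenase complex turns it into acetyl-CoA. That complex is switched off by its kinases and on by its phosphatases. Most steps have several paralogs with different tissue patterns, and the heart is known for drawing mainly on fatty acids while keeping glucose, lactate and glycogen in reserve.

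Gene reads came to 41862417 and 41790009 for animals 1 and 2. All 8 cardiomyocyte markers (Myh6, Myl2 and others) were at 10 TPM or more, with a sum of 31737 and 36514 TPM. The 7 erythroid markers summed to 43255 and 51879 TPM, so RNA of blood was present in both libraries. Skeletal muscle markers summed to 3.17 and 4.13 TPM with 1 of 10 at 0, and liver markers to 0.820 and 0.580 TPM with 2 of 6 at 0. In whole tissue, fewer cells of a type and less RNA per cell cannot be told apart. TPM was higher in animal 2 for 38 of the 42 members, but the median log2 TPM ratio of all tested genes was 0.22 and that of the members 0.21, so the SDs below contain this shift of scale.

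The members were abundant as a group. Their TPM summed to 9642 in animal 1 and 11178 in animal 2, or 2.51% and 2.48% of the TPM of nuclear protein-coding genes. Their median was 150.5 TPM, against 6.10 TPM over the 13660 nuclear protein-coding genes with at least 20 reads. Of the 42 genes 23 were at 100 TPM or more, 14 between 10 and 100, and 5 below 10 (Slc2a1, Pfkfb1, Slc16a3, Pdk3 and Pdp2). Altogether 34 of the 42 ranked in the top 10% of 22015 nuclear protein-coding genes. Levels were uneven along the path: lower glycolysis, from Gapdh to Pkm, held 31.2% of the summed TPM, the steps from Gpi1 to Tpi1 held 22.4%, lactate genes 14.3%, pyruvate dehydrogenase subunits 10.3% and the 6 glycogen genes 8.17%. Uptake and phosphorylation of glucose (4 genes) held 3.20% and the phosphatases of pyruvate dehydrogenase 0.221%.

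**Figure D1:**
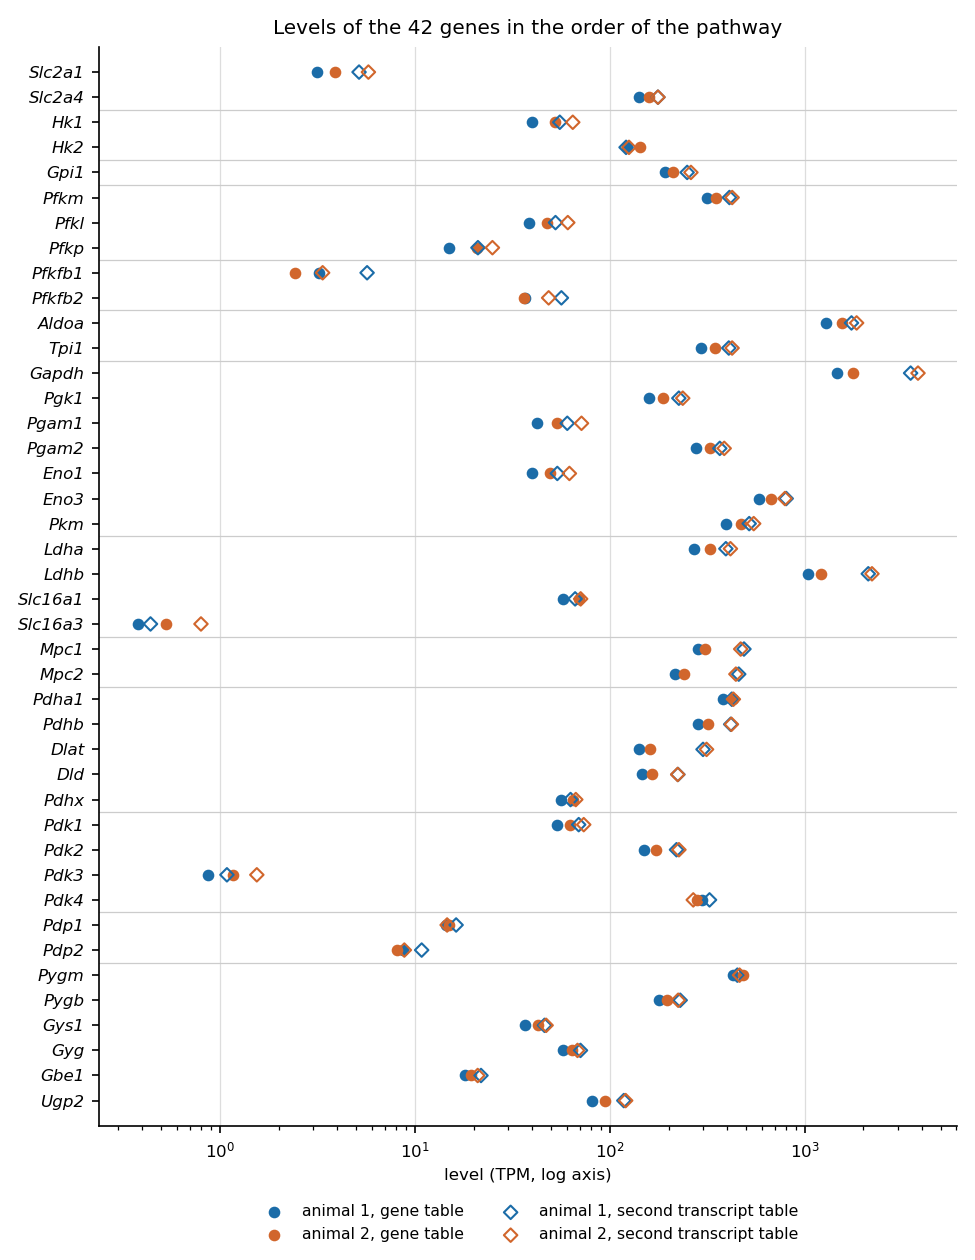
Level of each of the 42 genes in TPM on a log axis, in the order of the pathway with grey lines between steps. Filled circles are the gene tables and open diamonds the second transcript tables, blue for animal 1 and orange for animal 2. Gapdh, Aldoa and Ldhb sit highest in both quantifications, and Slc16a3 and Pdk3 lowest.

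Among the glucose transporters the insulin-regulated Slc2a4 led (GLUT4, ENSMUSG00000018566.14, chromosome 11, 69942539 to 69948188). It stood at 142 TPM in animal 1 and 159.6 TPM in animal 2. Slc2a1, the basal transporter GLUT1, stood at 3.13 and 3.90 TPM. The ratio of Slc2a4 to Slc2a1 was 43.1 ± 3.04 (SD, n = 2), and 32.4 ± 2.52 in the second transcript tables. Among the transporters Slc2a1, Slc2a2, Slc2a3 and Slc2a4, Slc2a4 held 96.5% ± 0.175 of the TPM, Slc2a1 2.25% ± 0.155 and the neuronal type Slc2a3 1.22% ± 0.0210.

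Glucose is phosphorylated by hexokinases, and here the muscle enzyme Hk2 (ENSMUSG00000000628.10, chromosome 6, 82725025 to 82774454) led. Hk2 stood at 122 and 143 TPM and Hk1, the broadly expressed enzyme, at 39.8 and 52.6 TPM. Every Hk2 value lay above every Hk1 value. The share of Hk2 was 72.5% ± 1.70 and that of Hk1 25.1% ± 1.57. The second quantification moved Hk1 up to 31.8% ± 1.82 and Hk2 down to 65.5% ± 1.75 without changing their order.

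Phosphofructokinase was mainly of the muscle type. Pfkm (ENSMUSG00000033065.14, chromosome 15, 98092589 to 98132451) stood at 314 and 352 TPM. Pfkl, the liver type, stood at 38.2 and 47.9 TPM, and Pfkp, the platelet type, at 15.0 and 20.8 TPM. The shares were 84.6% ± 1.29, 10.9% ± 0.692 and 4.51% ± 0.601 for Pfkm, Pfkl and Pfkp. Pfkp shares 748 exonic bases with Pitrm1 on the opposite strand, which held 1804 and 1840 reads against 1603 and 1906 for Pfkp, and no source here says that counting used strand, so the level of Pfkp is uncertain.

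The bifunctional enzymes that make and remove fructose 2,6-bisphosphate, an activator of phosphofructokinase, were led by the cardiac form Pfkfb2 (ENSMUSG00000026409.14, chromosome 1, 130689182 to 130729253). Pfkfb2 stood at 36.6 and 36.3 TPM, which is 82.8% ± 0.955 of the family. Pfkfb1, the liver and muscle form, stood at 3.21 and 2.42 TPM, with 165 and 111 reads. Apex2, which overlaps it on the opposite strand by 123 exonic bases, held 223 and 154 reads, so Pfkfb1 is uncertain. Pfkfb3 held 8.74% ± 0.457 of the family and Pfkfb4 2.09% ± 0.253.

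**Figure D2:**
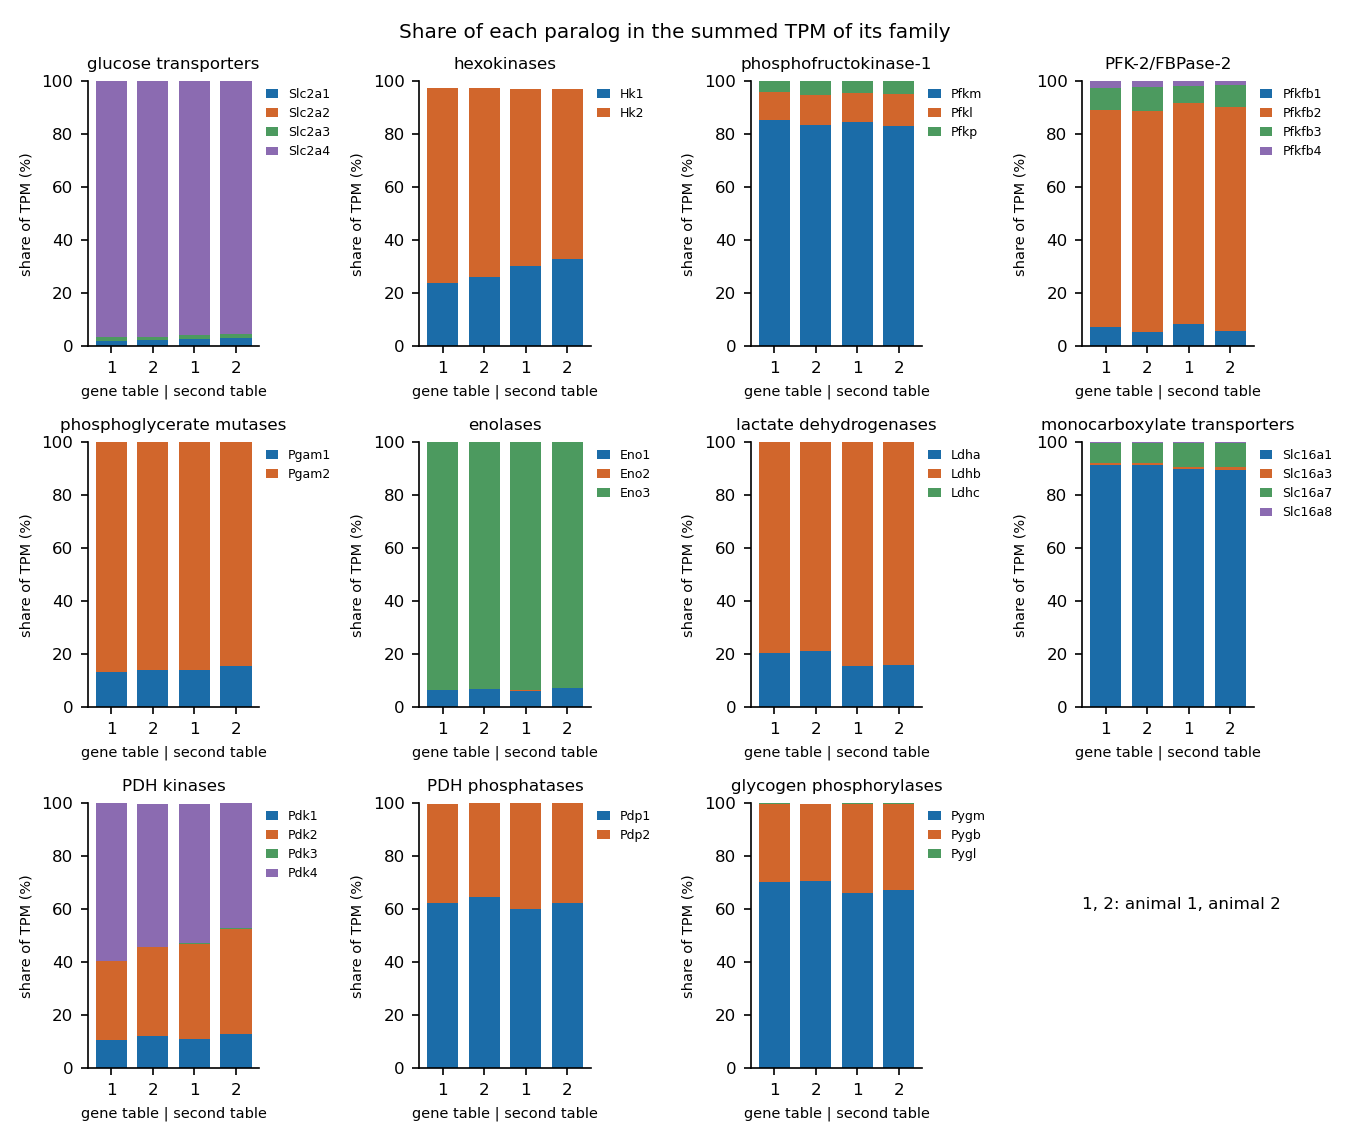
Share of each paralog in the summed TPM of its family, in percent, for 11 of the 15 families; the left pair of bars in each panel is the gene table and the right pair the second transcript table, for animals 1 and 2. The hexokinase panel draws Hk1 and Hk2 alone, so its bars end below 100%. The leading paralog is the same in all 4 bars of each panel. The leading share is smallest in the pyruvate dehydrogenase kinase panel, with Pdk4 at 56.7% of the gene-table TPM, followed by the phosphatases, with Pdp1 at 63.6%.

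Of the other steps from glucose phosphate to the triose phosphates, aldolase RNA came almost wholly from 1 gene. Gpi1, the isomerase, stood at 192 and 211 TPM. Aldoa, the aldolase of muscle (ENSMUSG00000030695.16, chromosome 7, 126795234 to 126800751), stood at 1289.9 and 1549 TPM and held 99.9% of the aldolase TPM, against 0.0279% for the brain form Aldoc. Another annotated entry of the name Aldoa held 1 and 3 reads and was left out. Tpi1, triose phosphate isomerase, stood at 294 and 346 TPM.

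Gapdh, which oxidises glyceraldehyde phosphate (ENSMUSG00000057666.18, chromosome 6, 125161715 to 125166467), had the highest TPM of the 42 genes, at 1464 and 1767 TPM. This level rests on how its reads were assigned. In the first transcript tables Gapdh-208, a processed transcript of 483 bases with no coding sequence, took 74.3% ± 0.198 of the Gapdh TPM, and 0.00063% in the second transcript tables. There Gapdh-207, a coding transcript of 471 bases, took 54.5%. The effective length behind the gene-table value was 586 bases, and the second tables put Gapdh at 3489.9 and 3809 TPM. Gapdh also has 178 annotated copies that align over at least 300 bases at 90% identity or more, 169 of them pseudogenes, with 3308 reads in animal 1 against 31762 for the gene. Of the 3308, 638 were reads of Peli2, a protein-coding gene that aligns over 1084 bases at 90.8% identity. Reads of Peli2 need not come from its matching part. In the second tables the copies held 21121 reads and Gapdh 56650. By reads per kilobase of the longest coding transcript, a scale chosen after these values were seen, Gapdh ranked behind Aldoa and Ldhb.

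Pgk1, phosphoglycerate kinase, stood at 159 and 186 TPM and was the only form detected, with Pgk2 listed at 0. A pseudogene that matches Pgk1 over 1252 bases, Gm5537, took 698 and 736 reads beside 10181 and 10728 of Pgk1. Phosphoglycerate mutase was of the muscle type: Pgam2 (ENSMUSG00000020475.3, chromosome 11, 5801640 to 5803733) stood at 278 and 327 TPM and Pgam1, the brain type, at 42.1 and 53.5 TPM. The ratio of Pgam2 to Pgam1 was 6.35 ± 0.342 by TPM, and Pgam2 held 86.4% ± 0.633 of the TPM.

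Enolase followed the same order, with the muscle form Eno3 (ENSMUSG00000060600.15, chromosome 11, 70657202 to 70662513) at 583 and 669.8 TPM and the general form Eno1 at 39.9 and 49.5 TPM. Eno3 held 93.2% ± 0.359 of the enolase TPM and the neuronal form Eno2 0.131% ± 0.0204. Eno1 is uncertain, since it has 6 copies that align at 90% identity or more, chiefly Eno1b and Gm4735. Together the 6 copies held 1176 and 1426 reads, 60.8% and 63.7% of the 1935 and 2239 reads given to Eno1. Eno3, with 27478 and 28552 reads, had no such copy.

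Pyruvate kinase, the last step, came from Pkm alone (ENSMUSG00000032294.17, chromosome 9, 59656368 to 59679375, plus strand) at 395 and 472 TPM, while Pklr, the form of liver and red cells, was listed at 0 in the gene tables. Pkm makes either the M1 enzyme of adult muscle or the M2 enzyme of many other and growing cells, by including 1 of 2 mutually exclusive coding exons of equal length. In the GENCODE M21 annotation Pkm-202 holds the upstream exon, that of M1, at chr9:59675029-59675195 of mm10, and Pkm-201 the downstream exon, that of M2, at chr9:59675568-59675734. Each is exon 9 of 11 in its transcript and 167 bases long. They are printed because they are what sets M1 apart from M2 in the annotation. Capitals mark the 64 positions at which the aligned exons differ, which leaves 61.7% identity.
Pkm-202 exon of M1: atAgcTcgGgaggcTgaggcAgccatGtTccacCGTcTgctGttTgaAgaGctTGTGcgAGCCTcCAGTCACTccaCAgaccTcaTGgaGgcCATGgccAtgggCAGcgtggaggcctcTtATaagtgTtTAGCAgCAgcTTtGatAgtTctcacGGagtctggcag
Pkm-201 exon of M2: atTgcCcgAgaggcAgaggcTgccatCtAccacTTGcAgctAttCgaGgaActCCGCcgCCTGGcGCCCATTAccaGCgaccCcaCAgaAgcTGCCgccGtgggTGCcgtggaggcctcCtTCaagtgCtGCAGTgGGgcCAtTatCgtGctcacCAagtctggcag

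The annotated M1 and M2 transcripts of Pkm were assigned nearly equal levels. Reads over the exon that sets them apart were not counted. In the first transcript tables the M1 transcript Pkm-202 stood at 202 and 253 TPM and the M2 transcript Pkm-201 at 186 and 213 TPM. M1 made up 51.3% of the Pkm TPM in animal 1 and 53.5% in animal 2, or 52.4% ± 1.60. The second transcript tables turned the order, with M1 at 232 and 253 TPM and M2 at 252 and 259.7 TPM, an M1 share of 45.4% ± 1.07. Over M1 plus M2 alone the M1 share was 53.1% ± 1.53 and 48.6% ± 0.987 in the first and second tables. Since both animals agree within each quantification and the quantifications differ, which form leads is not settled by these files. The M2 transcript has 558 bases that the M1 transcript lacks, 205 at its 5′ side and 186 at its 3′ side beside the exon, while M1 has only its exon of 167 bases to itself. The assignment spread, the deposited posterior SD of a count within 1 library, was 163 reads on 14572 reads of Pkm-202 in animal 1. Of the 9 other Pkm transcripts none passed 1.48 TPM in the first tables, and Pkm-206 stood at 31.3 and 30.3 TPM in the second.

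**Figure D3:**
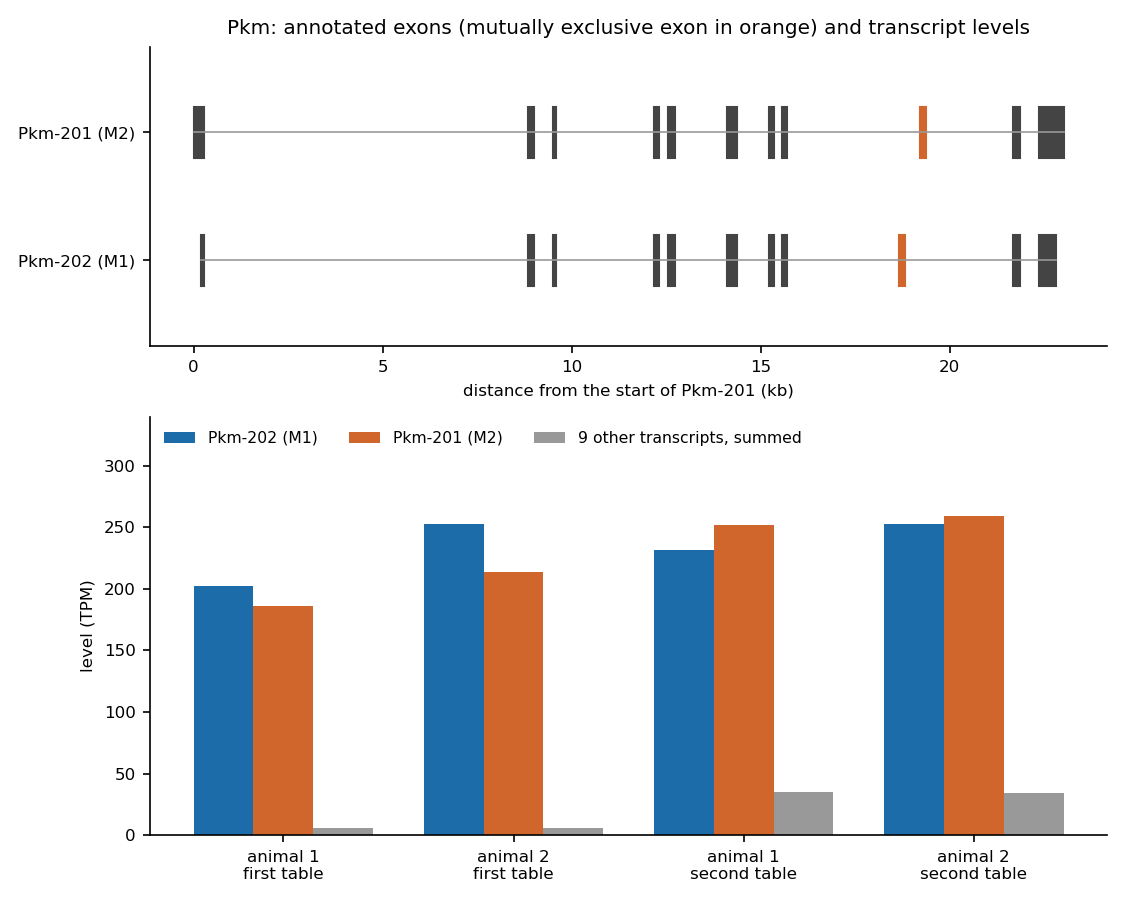
Top, annotated exons of the M2 transcript Pkm-201 and the M1 transcript Pkm-202 against the distance from the start of Pkm-201 in kilobases, with the mutually exclusive exon of each in orange. Bottom, TPM of M1, M2 and the sum of the 9 other transcripts in each animal for the first and second transcript tables. M1 is the taller bar in the first tables (202 against 186 TPM in animal 1) and M2 in the second (252 against 232 TPM).

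Lactate dehydrogenase was mainly the heart subunit. Ldhb (ENSMUSG00000030246.11, chromosome 6, 142490249 to 142507957), whose tetramer is known for favouring the use of lactate, stood at 1037 and 1211 TPM. Ldha, the muscle subunit, stood at 270.1 and 326 TPM, below Ldhb in both animals. The ratio of Ldhb to Ldha was 3.78 ± 0.0879 by TPM, and 5.35 ± 0.0386 in the second tables, where the level of Ldhb was 1.92 times that of the gene tables. The Ldhb share was 79.1% ± 0.385, and Ldhc was listed at 0. Lactate crosses the membrane through monocarboxylate transporters, of which Slc16a1 (MCT1, ENSMUSG00000032902.1, chromosome 3, 104638668 to 104658462) held 91.5% ± 0.0781 at 57.5 and 69.1 TPM. Slc16a7 (MCT2) held 7.67% ± 0.0912. Slc16a3, the exporter MCT4 of glycolytic muscle, held 0.654% ± 0.0679 with 29 and 35 reads. Bsg, the chaperone that brings these transporters to the membrane, was far above them at 508 and 599.7 TPM.

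Both subunits of the mitochondrial pyruvate carrier were abundant, Mpc1 at 282 and 307 TPM and Mpc2 at 217 and 241 TPM. Their ratio was 1.29 ± 0.0142 by TPM, and 1.06 ± 0.00369 in the second tables. Mpc2 stood at 458 and 443 TPM there. Non-coding transcripts held 38.1% of the Mpc2 TPM in the first transcript tables and 50.2% in the second, against 3.03% and 1.10% for Mpc1. These ratios are thus over all transcripts and not over coding RNA alone. A pseudogene that matches 330 bases of Mpc1, Mpc1-ps, held 1293 and 1308 reads beside 8586 and 8511 of Mpc1 in the gene tables, and none in the second, so Mpc1 is uncertain.

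All 5 core genes of the pyruvate dehydrogenase complex were present, in unequal amounts. Pdha1, which encodes the catalytic alpha subunit of E1 (ENSMUSG00000031299.10, chromosome X, 160122209 to 160138413), stood at 379 and 428 TPM and its partner Pdhb at 283 and 317 TPM. Dlat, the acetyltransferase core E2, stood at 141 and 160.2 TPM, the E3 enzyme Dld at 146 and 164 TPM, and Pdhx, which tethers E3 to the core, at 55.9 and 64.8 TPM. The order Pdha1, Pdhb, then Dlat and Dld, then Pdhx held in both animals. Over all transcripts Dld stood slightly above Dlat in both animals. Their SDs of 13.9 TPM for Dlat and 12.7 TPM for Dld contain the shift of scale and do not measure this difference. In the first transcript tables non-coding transcripts held 34.4% of the Dlat TPM and 8.39% of the Dld TPM. The small difference is thus not one of coding RNA alone. In the second tables Pdha1 and Pdhb were close (a ratio of 1.02 ± 0.00739 against 1.34 ± 0.00514) and Dlat stood above Dld, at 301 and 313 TPM against 223 TPM in each animal. Non-coding transcripts held 27.4% of the Pdhb TPM there against 1.82% for Pdha1, and 65.0% of the Dlat TPM against 28.6% for Dld. These changes are thus over all transcripts and not over coding RNA alone. Pdha2, the testis form, was listed at 0.

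Kinase RNA exceeded phosphatase RNA at this switch by 22.0 ± 0.414 times in TPM. Pdk4, the kinase known to rise with fasting and fatty acid use (ENSMUSG00000019577.6, chromosome 6, 5483351 to 5496309), stood at 297 and 278 TPM and led the family with 56.7% ± 3.78. Pdk2, the broadly expressed kinase, stood at 149 and 173 TPM with 31.7% ± 2.68, Pdk1 at 53.3 and 62.6 TPM with 11.4% ± 1.06, and Pdk3 at 0.870 and 1.16 TPM with 0.199% ± 0.0362. The ratio of Pdk4 to Pdk2 was 1.99 in animal 1 and 1.61 in animal 2, and 1.48 and 1.18 in the second tables, so the order held in all 4 values and its size did not. Of the phosphatases, the calcium-stimulated Pdp1 stood at 14.4 and 15.0 TPM and Pdp2 at 8.67 and 8.10 TPM. Pdp1 led with 63.6% ± 1.78 by TPM, but Pdp2 held more reads, 1800 and 1511 against 1384 and 1318, on a single transcript of 5692 bases. Pdpr, the regulatory subunit of the phosphatase, stood at 35.5 and 38.8 TPM.

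Glycogen phosphorylase genes stood above the glycogen synthesis genes. Pygm, the muscle phosphorylase (ENSMUSG00000032648.14, chromosome 19, 6384399 to 6398459), stood at 428 and 484 TPM, and Pygb, the brain phosphorylase, at 178 and 197 TPM. Pygm held 70.7% ± 0.243 of the phosphorylase TPM, Pygb 29.1% ± 0.313 and the liver form Pygl 0.244% ± 0.0708. On the synthesis side, Gys1, the muscle glycogen synthase, stood at 36.9 and 42.6 TPM, with Gys2 of liver at 0.0469% of the pair. Pygm plus Pygb exceeded Gys1 by 16.2 ± 0.312 times in TPM. Gyg, the primer protein glycogenin, stood at 57.6 and 63.8 TPM, the branching enzyme Gbe1 at 18.0 and 19.3 TPM, and Ugp2, which makes UDP-glucose, at 81.0 and 94.2 TPM. Ruvbl2 overlaps Gys1 on the opposite strand by 310 exonic bases and held 563 and 615 reads, 11.7% and 12.3% of those of Gys1.

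Across the 15 families with more than 1 annotated paralog, the same paralog led in both animals and in both quantifications in all 15. It also led in all 15 when only coding transcripts of the first tables were summed, and in 14 when reads were taken without correction for length, the exception being the phosphatases. With 2 animals no exact permutation test can pass 0.05, so these orders are descriptions.

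Beyond the 42 members, 64 other genes of the same pathways were listed. Of these, 38 had a mean of 1 TPM or more, 17 of 10 TPM or more, and 8 were at 0 in both animals. Glycogen genes were the best represented, with 21 of 24 at 1 TPM or more. Among them Pgm1 and Pgm5, of the phosphoglucomutase family, stood at 82.8 ± 9.20 and 38.3 ± 4.14 TPM, and the lysosomal glucosidase Gaa at 36.8 ± 3.42 TPM. The glycogen-targeting phosphatase subunits Ppp1r3c and Ppp1r3a stood at 58.3 ± 11.9 and 26.8 ± 2.72 TPM, and the phosphorylase kinase subunits Phkb and Phka1 at 21.1 ± 0.0283 and 15.5 ± 0.523 TPM. The glycogen synthase kinases Gsk3a and Gsk3b stood at 25.0 ± 3.09 and 20.1 ± 1.82 TPM and laforin, Epm2a, at 13.1 ± 0.898 TPM. Bpgm, which makes the red cell regulator bisphosphoglycerate, stood at 58.5 ± 9.26 TPM beside the erythroid sum given above. Tigar, a fructose bisphosphatase, stood at 19.8 ± 3.11 TPM, G6pc3, a broadly expressed glucose phosphatase, at 18.3 ± 2.02 TPM, and the lactate dehydrogenase Ldhd, which acts on the D form, at 17.8 ± 1.79 TPM. None of the 10 other sugar transporters listed reached 10 TPM.

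The comparison of the animals asks how far glucose genes differ between mice of 1 kind. The test was an exact binomial one, two-sided, of the share of reads that animal 2 held after scaling, and p-values were adjusted by Benjamini-Hochberg over all 16133 genes with at least 20 reads. It compares 2 libraries and not conditions, and it sees counting error only. None of the 42 members differed at least 2-fold at an adjusted p under 0.05, where 1.3% of all tested genes did (0.446% higher and 0.855% lower in animal 2). At an unadjusted p under 0.05 and with no fold minimum, 24 of the 42 members passed, where 21.4% of all tested genes did.

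With no fold minimum 14 of 42 members passed at the adjusted threshold, 6 higher and 8 lower in animal 2, where 11.1% of all tested genes passed (6.5% higher and 4.65% lower). Small differences pass more easily at high read numbers. Of the 37 members with at least 3000 reads 13 passed, or 35.1%, against 24.1% of all 3232 genes with as many reads (14.9% higher and 9.25% lower). The median log2 ratio was -0.02 for the members and -0.00 for all tested genes, and members ranged from -0.65 for Pfkfb1 to 0.28 for Pdk3. Scaled by total reads instead of by the trimmed mean of M values (TMM), 27 members passed, 23 higher and 4 lower, where 20.5% of all tested genes passed (18.2% higher and 2.29% lower), so the split of directions depends on the scaling, while the median of all genes moved from -0.00 to 0.08.

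Lower in animal 2 were Pdk4, with 26845 and 23385 reads and a ratio of 0.826 (exact 95% interval 0.812 to 0.841, adjusted p = 4.42e-99, exact binomial test), and Pdp2, with a ratio of 0.796 (0.743 to 0.853). The other kinases Pdk1 (0.985), Pdk2 (0.996) and Pdk3 (1.21) and the phosphatase Pdp1 (0.903) did not pass by the trimmed-mean scaling. Pfkfb2 had a ratio of 0.859 (0.819 to 0.900) and Pfkfb1 of 0.638 (0.497 to 0.816). Pdk4, Pdp2, Pfkfb2 and Pfkfb1 passed and kept their direction under all 4 scalings and quantifications tried. The level of Pfkfb1 is uncertain, and Apex2, which overlaps it, held 223 and 154 reads. Yod1 overlaps Pfkfb2 on the opposite strand by 154 exonic bases and held 361 and 326 reads. The part of these overlaps in the ratios was not tested. Mpc1 (0.940), Slc2a4 (0.948), Pygb (0.960) and Pdhb (0.966) were lower by the trimmed-mean scaling. None of these 4 passed when scaled by total reads, where Slc2a4, Pygb and Pdhb had log2 ratios of 0.00, 0.02 and 0.03. Pdhb did not pass in the second tables either (adjusted p = 0.33, exact binomial test).

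Higher in animal 2 were Pfkp (ratio 1.13, 1.05 to 1.21), Hk1 (1.11, 1.07 to 1.15), Eno1 (1.10, 1.03 to 1.17), Pfkl (1.09, 1.04 to 1.13), Pgam1 (1.08, 1.03 to 1.14) and Gapdh (1.03, 1.02 to 1.05). All 6 passed and kept their direction under all 4 scalings and quantifications. Pfkp and Eno1 are among them, and their levels were called uncertain above. The level of Gapdh rests on how its reads were assigned, and its copies held 3308 and 3224 reads. The part of these copies in its ratio was not tested. Of the 14 members that do not lead their family 5 passed as higher and 3 as lower in animal 2. Of the 15 that lead a family 0 passed as higher and 3 as lower, at the same adjusted threshold of the exact binomial test. Of all tested genes 6.5% passed as higher and 4.65% as lower. The split between leading and other members rests on the scaling. By total reads 10 of the 15 leading members passed as higher and 2 as lower, against 7 and 2 of the 14 others. By that scaling 18.2% of all tested genes passed as higher and 2.29% as lower. Whether leading and other paralogs differ in these calls was not tested. The members that do not lead include the low-read genes Slc2a1, Slc16a3 and Pdk3. Markers of other cells differed between the libraries too: reads of the 7 endothelial markers had a summed ratio of 1.10, of the 7 fibroblast markers 1.18, of the 7 mural markers 1.22, of the 7 macrophage markers 1.21 and of the 6 white adipocyte markers 2.20 (23.2 and 59.8 TPM). The summed levels in animals 1 and 2 were 345 and 441 TPM for endothelial, 276 and 367 TPM for fibroblast, 202 and 282 TPM for mural and 71.4 and 96.8 TPM for macrophage markers. None of these markers was at 0. Skeletal muscle markers went the other way in reads, with 186 and 117 in all and a ratio of 0.596, and Myh1 among them, at 22 and 1 reads, passed the 2-fold test as lower in animal 2. Liver markers had 30 and 21 reads, a ratio of 0.664. The cardiomyocyte sum had a ratio of 0.970. The part of these cell types in the differences of the members was not tested.

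**Figure D4:**
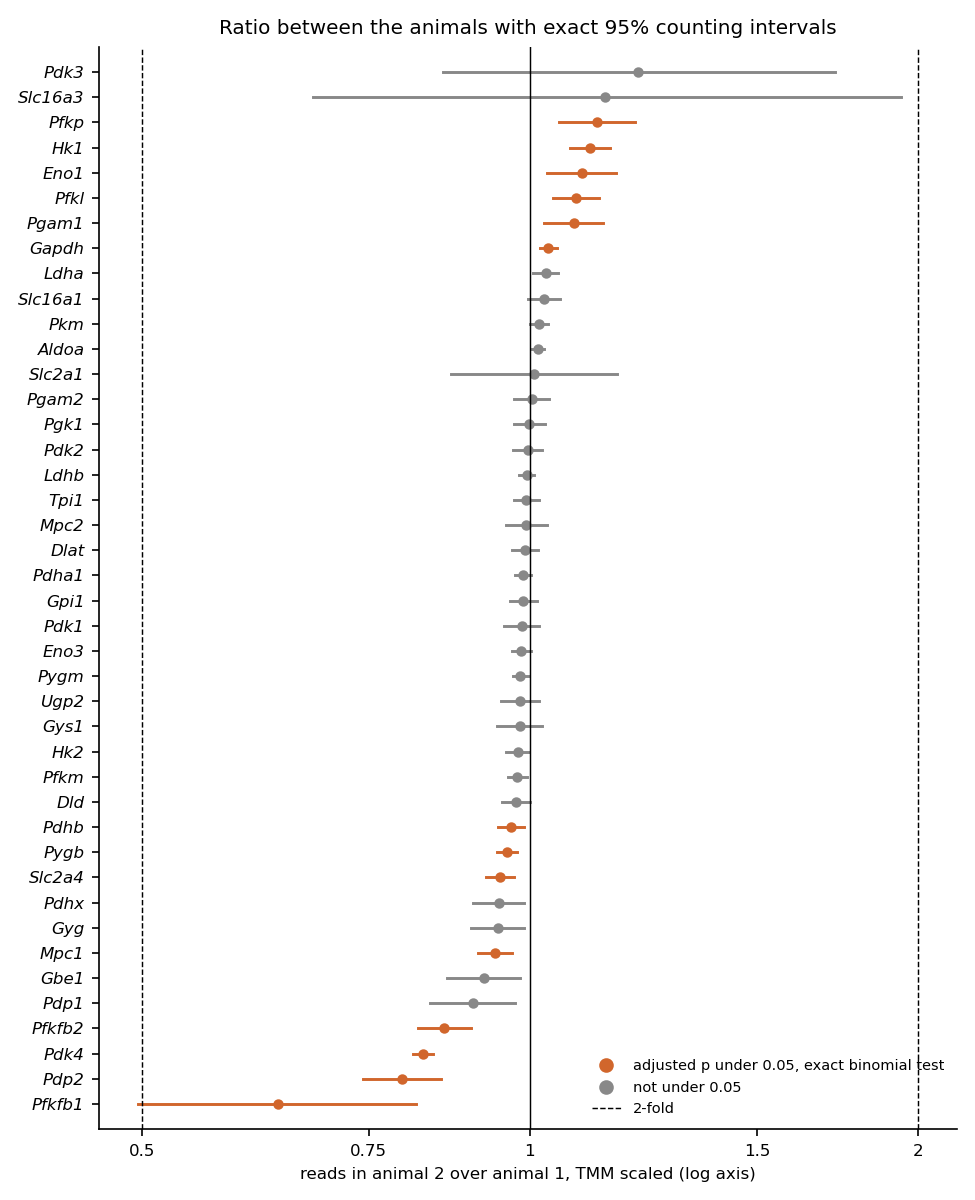
Ratio of TMM-scaled reads, animal 2 over animal 1, for each member on a log axis, with exact 95% intervals that cover counting error only. Orange marks an adjusted p under 0.05 by the exact binomial test over all tested genes and dashed lines mark 2-fold. Every point estimate lies inside the 2-fold lines, from 0.638 for Pfkfb1 to 1.21 for Pdk3.

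Of the 64 other pathway genes, 47 had enough reads to be tested, and none passed the 2-fold test, with Stbd1, a glycogen-binding protein of 32 and 68 reads, just short of the fold once the prior count was added. This gene was singled out after its value was seen. With no fold minimum 3 of the 47 passed as higher in animal 2 and 4 as lower, where 6.5% and 4.65% of all tested genes did. Among them were Ppp1r3c, with a ratio of 1.14 (1.10 to 1.18), and Phka1, with a ratio of 0.904.

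By the mean of the animals, the second transcript tables put every member but Hk2 higher than the gene tables did. In animal 2 alone Hk2, Pdk4, Pdp1 and Pygm were lower there. Their summed TPM was 15652 ± 441, against 10410.03 ± 1086 in the gene tables. The ratio of the second to the first quantification had a median of 1.29 over the members and ranged from 0.929 for Hk2 to 2.26 for Gapdh. Dlat (2.04), Mpc2 (1.97) and Ldhb (1.92) came next to Gapdh. Their non-coding or short transcripts took more of the level in the second tables: 65.0% against 34.4% for the non-coding transcripts of Dlat, 49.96% against 37.7% for a non-coding transcript of Mpc2, and 37.5% against 22.0% for a coding Ldhb transcript of 437 bases. By the mean of the animals, the leading transcript was the same in both quantifications for 30 of the 42 genes, and it was coding in the first tables for every gene but Gapdh. It held 90% or more of the TPM in 17 genes and under 50% in 8 (Pfkm, Pfkp, Pfkfb1, Pfkfb2, Eno1, Slc16a3, Pdp1 and Gbe1). In the first tables the leading transcript differed between the animals for 4 genes, Pfkfb1, Eno1, Slc16a3 and Gbe1. A Slc16a3 transcript of 2272 bases held 68.4% of the TPM of that gene in animal 1 and 3.77% in animal 2.

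**Figure D5:**
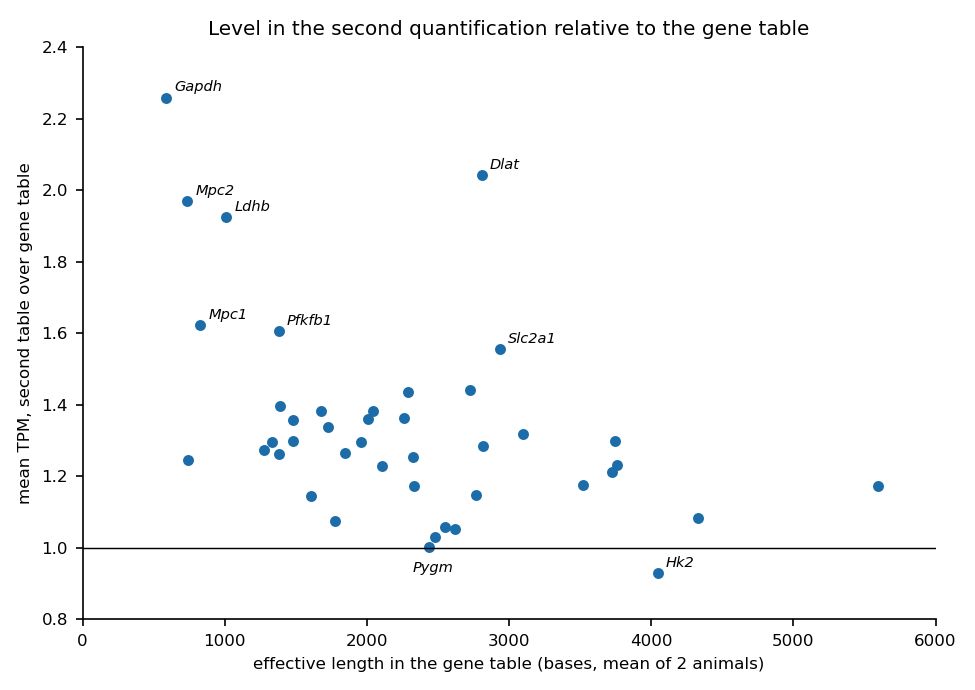
Mean TPM of the second transcript tables divided by mean TPM of the gene tables for each member, against its effective length in the gene tables in bases (1 point per gene, mean of 2 animals). The line marks equal levels, and labelled genes are those with the 7 highest and the 2 lowest ratios. Gapdh (2.26), Mpc2 (1.97) and Ldhb (1.92) lie at short effective lengths, Dlat (2.04) does not.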

How the data were processed

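Expected counts and TPM of the gene tables and first transcript tables were made by the authors, with columns laid out as by RSEM per the file headers, from transcriptome alignments to mm10 with GENCODE M21, per the deposited readme; the posterior SD of each count is theirs too. The second transcript tables hold estimated counts and TPM deposited by the authors, with the columns of kallisto per the file headers, for 141864 transcripts. Counts are not normalised, and TPM is scaled per length and over all entries of a table. No source here gives the aligner, the tool versions or the use of strand, and the effect of mapping hybrid reads to mm10 was not tested. Entries with a number for a name (26248) held 9.5e-06% and 4.76e-06% of reads and were left out.

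The members and lists were chosen with earlier results of these data known. Levels are mean ± SD of deposited TPM over 2 animals. Expected counts were rounded; genes with at least 20 reads entered an exact, two-sided binomial test on library sizes scaled by TMM (edgeR 4.0.16, R 4.3.3; 40704273 and 42932076), with Benjamini-Hochberg adjustment at 0.05, 2-fold, and a prior count of 0.5 in log2 ratios. The limit that a count of 0 allows is 3 reads, 0.0717 and 0.0718 CPM. Reads carry no molecular identifiers, so intervals cover counting error only. Copies were searched with BLASTN 2.17.0 among M21 transcripts. The comparison was tested on simulated data that held counting error only. That run says nothing of variation between animals. Named beside all 42 members were other pathway genes at 10 TPM or more, those leading a family and those passing the 2-fold test; some of these genes are not reported here. No sample was left out.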

Additional observations from a re-analysis of the deposited data

How the results depend on the processing

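Of 78 values recomputed under alternatives other than leaving out an animal, 34 kept their call or size and 44 moved. The summed TPM of the members became 15652 with the second transcript tables and 24956 when TPM was rescaled over nuclear protein-coding genes, and ranged from 9642 to 11178 with either animal left out. With the second tables the leading shares were 95.5% for Slc2a4, 65.5% for Hk2, 84.1% for Pfkfb2, 99.93% for Aldoa, 85.1% for Pgam2, 99.997% for Pkm, 84.3% for Ldhb, 89.8% for Slc16a1, 49.9% for Pdk4, 61.2% for Pdp1, 66.6% for Pygm and 45.4% for the M1 transcript of Pkm. With coding transcripts only they were 97.0% for Slc2a4, 65.9% for Hk2, 86.6% for Pfkm, 84.7% for Pfkfb2, 93.7% for Eno3, 92.4% for Slc16a1 and 68.0% for Pygm. As shares of reads they were 95.5% for Slc2a4, 74.8% for Hk2, 80.9% for Pfkm, 85.4% for Pfkfb2, 99.89% for Aldoa, 73.7% for Pgam2, 92.9% for Eno3, 72.0% for Ldhb, 93.8% for Slc16a1, 45.0% for Pdp1 and 61.3% for Pygm; length is the only change there. With no fold minimum 1048 genes and 6 members were higher in animal 2 and 750 genes and 8 members higher in animal 1. With neither a count filter nor a fold minimum 7 members were higher and 7 lower in animal 2, where 6.59% of all genes passed. Total reads, DESeq2 size factors, no count filter and the second tables called 0 members at 2-fold, as the reported test did. With either animal left out a share or sum cannot move by more than its SD over 2 values, so the 34 such values say nothing of stability, and the comparison of the animals cannot be made. Among the highest members, Gapdh ranked 1 by TPM in both quantifications, 3 per kilobase of coding transcript and 5 by reads alone, while Aldoa ranked 2, 3, 1 and 1 by gene-table TPM, second-table TPM, reads per kilobase and reads, and Ldhb 3, 2, 2 and 2; these scales of rank were chosen after seeing the data. The causes of these moves were not tested. No paired analysis was possible because there is only 1 group. With 1 library per animal, differences between animals, dissections and library preparations cannot be told apart, and Slc16a3 and Pdk3, at 64 and 139 reads in all, limit any statement on them.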
